A study of Mus musculus with 21 samples.

Results

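Lungs of A/J mice that had all received the carcinogen NNK were compared after 24 weeks of intranasal dust extract or saline. The 11 libraries, of 21 in the series, are those whose group label in the raw count table pairs NNK with HDE (5 libraries, HDE + NNK) or with saline (6 libraries, saline + NNK). All genes of the panel were considered, 750 endogenous and 20 housekeeping genes, and 388 of these 770 were tested. HDE was made by extracting settled dust of swine barns in buffered salt solution and passing it through a sterile filter. The mice were 8 to 12 weeks old, of both sexes, and were given 50 µL of 12.5% HDE or of saline 3 times a week, with a single intraperitoneal dose of 100 mg/kg of NNK at the start of week 4. NNK is a nitrosamine of tobacco, and A/J is an inbred strain prone to lung tumors. By the labels, 3 of the 5 HDE + NNK mice and 3 of the 6 saline + NNK mice were female. Each library is 1 animal. According to the study's methods, lungs had been lavaged and visible tumors cut from the left lung before the tissue was preserved, so the RNA is from lung without visible tumors, after part of the airspace cells had been washed out.

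Inhaled organic dust carries bacterial and fungal products, which resident macrophages and the airway lining sense through Toll-like receptors and C-type lectins. These cells release chemokines, small secreted proteins that call monocytes, eosinophils, neutrophils and lymphocytes out of the blood. With repeated exposure, macrophages rich in scavenger and Fc receptors and clusters of B cells can collect around airways and vessels. The capillary endothelium makes up much of the normal lung and is identified by adhesion and receptor genes such as Pecam1, Cdh5 and Kdr. In whole-lung RNA, a lower level of a gene can reflect a smaller share of cells that express it or less RNA per cell. A smaller share need not mean fewer such cells, and these possibilities cannot be told apart here.

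Gene counts summed to between 309248 and 524127 per library, and the 8 negative control probes gave 5 to 40 counts. Each library was scaled by 4 of the panel's housekeeping genes (Eef1g, Sdha, Oaz1 and Rpl19, through their geometric mean), and values are given as normalized counts, which can be compared between libraries for 1 gene but not between genes, since probes differ. These 4 genes took 1.71 to 1.96% of all gene counts in the HDE + NNK libraries and 2.17 to 2.80% in the saline + NNK libraries, with no overlap. The direction of small changes depended on the scaling. With TMM scaling, which centres the bulk of the genes, the median log2 fold change over the tested genes was -0.0034 instead of 0.16. Of the 16 other housekeeping genes on the panel, 15 were tested. Their median log2 fold change was 0.17, and 2 of them, Gusb and Tubb5, were called higher. Tubb5 lost the call when lane 11 of run 1, an HDE + NNK library, was left out (log2 fold change 0.50, adjusted p = 0.157).

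Among the 388 tested genes, 116 were higher (29.9%) and 22 were lower (5.67%) in HDE + NNK lungs at an adjusted p under 0.05. Counts of called members in the gene lists below are to be read against these shares. Of the genes called higher, 51 rose more than 2-fold, whereas 0 of the genes called lower fell by that much. For 79 genes (20.4%) all 5 HDE + NNK libraries lay above all 6 saline + NNK libraries, and for 4 genes (1.03%) all lay below. Genes called higher made up 84.1% of the calls with the main scaling, 65.6% with all panel housekeeping genes (105 higher, 55 lower), 56.4% with TMM (101 higher, 78 lower), 73.8% with positive control scaling (31 higher, 11 lower) and 42.0% without scaling (37 higher, 51 lower). DESeq2 with its own size factors called 103 higher and 91 lower. TMM kept 101 of the 116 genes called higher and all 22 called lower. The first principal component of the 11 libraries held 63.9% of the variance, with scores of 1.95 to 11.1 for HDE + NNK and -8.69 to -4.38 for saline + NNK. The difference of means was 13.7 (two-sided exact permutation test over all 462 relabellings, p = 0.00216, the smallest this design can give).

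**Figure D1:**
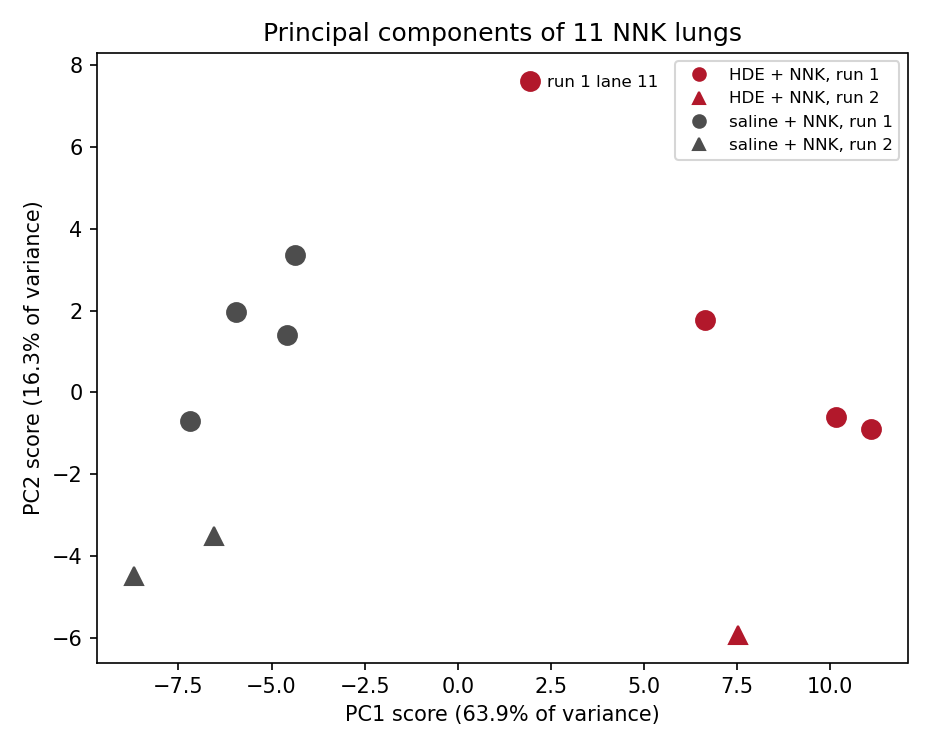
Scores of the 11 NNK lungs on the first (x axis) and second (y axis) principal components of log2 (normalized count + 1) over 388 genes, with circles for run 1 and triangles for run 2. HDE + NNK libraries lie at 1.95 to 11.1 on the first component, all above saline + NNK, and the library of run 1 lane 11 lies nearest to the saline + NNK group.

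One HDE + NNK library stood apart from the other 4. The library of run 1 lane 11 scored 1.95 on the first component, where the others scored 6.64 to 11.1. Its median shift from the saline + NNK mean was 0.69 (log2) over the 116 genes called higher, against 0.81 to 1.06 in the other 4 libraries, and -0.16 over the 22 genes called lower, against -0.92 to -0.37. Without it, 112 genes were higher and 48 lower, including 106 of the 116 and 21 of the 22 genes. Values are therefore given for each HDE + NNK library in a fixed order, run 1 lanes 7, 8, 9 and 11 and then run 2 lane 9, and a named gene whose call changed without lane 11 is given without it as well.

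CC chemokines were among the largest rises. Of 8 tested members of the list of CC chemokines and receptors of monocytes and eosinophils, 6 were higher, 0 lower, with a median log2 fold change of 1.49 against 0.16 over all tested genes. Ccl8, a chemokine for monocytes and, in mice, for type 2 T cells, had normalized counts of 1544, 2611, 2473, 628 and 1408 in the HDE + NNK libraries. The 6 saline + NNK libraries ran from 45.5 to 214 (median 170.5). The lowest HDE + NNK lung lay above the highest saline + NNK lung (log2 fold change 3.57 ± 0.39, adjusted p = 9.11e-07). Ccl11, the eosinophil chemoattractant eotaxin, gave 467, 719.8, 715, 529.8 and 863 against 50.8 to 134 (median 87.3), again with no overlap (log2 fold change 2.82 ± 0.21, adjusted p = 2.27e-09), and it had the smallest adjusted p of all tested genes. The macrophage-made chemokines Ccl6 and Ccl9 moved likewise. Ccl6 gave 1923, 2114, 2399, 986 and 2693 against 360.3 to 636 (median 494) (log2 fold change 2.04 ± 0.25, adjusted p = 1.78e-06). Ccl9 gave 1022, 1303, 1669, 738 and 1147 against 263 to 407 (median 374) (log2 fold change 1.76 ± 0.20, adjusted p = 1.02e-06). In these 4 genes lane 11 was the lowest HDE + NNK library for Ccl8, Ccl6 and Ccl9 but not for Ccl11.

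**Figure D2:**
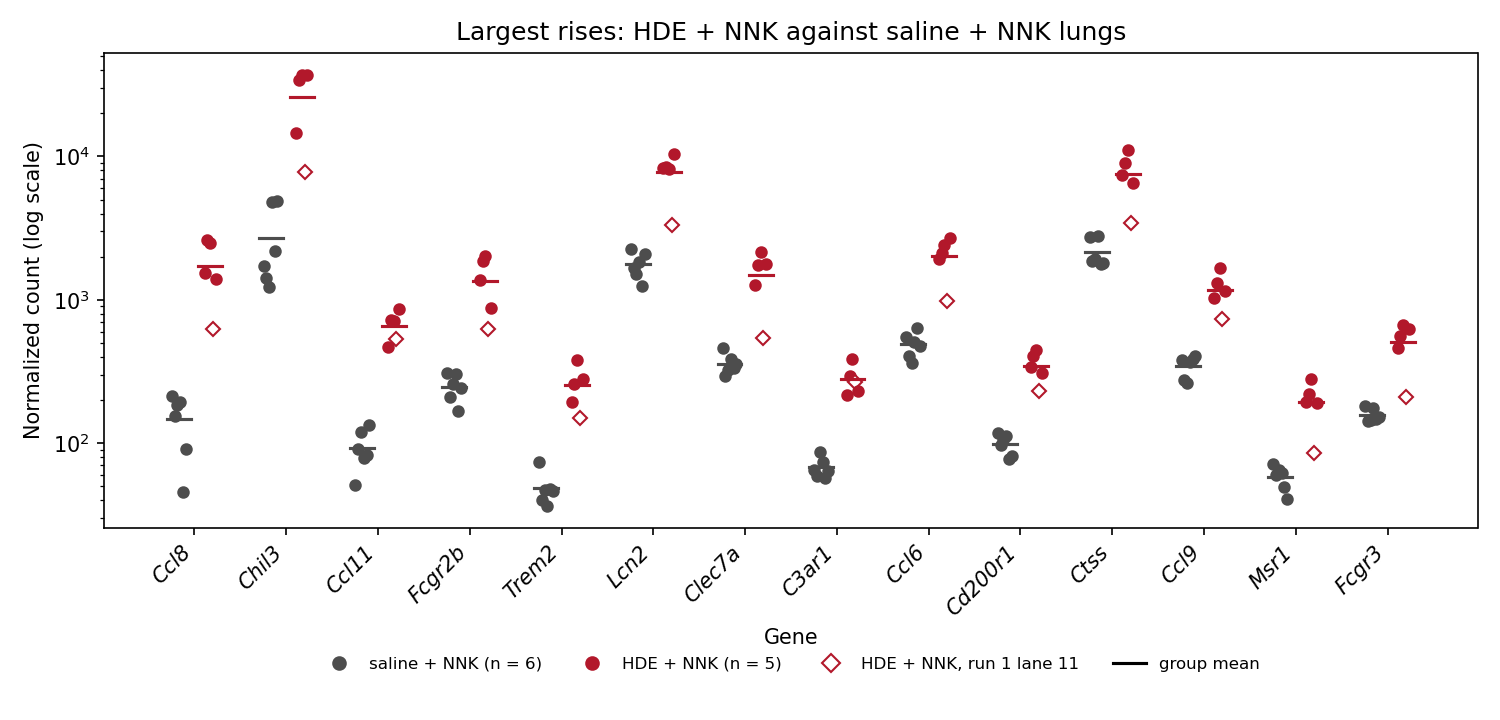
Normalized counts (y axis, log scale) of the 14 genes with the largest rises, 1 point per library, with saline + NNK in grey, HDE + NNK in red, the HDE + NNK library of run 1 lane 11 as an open diamond and lines at group means. In all 14 genes the 5 HDE + NNK lungs lie above the 6 saline + NNK lungs.

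Ccl17, which attracts type 2 helper T cells, was higher on average but overlapped, with 177, 252, 286, 121 and 95.0 against 67.0 to 125 (median 77.7) (log2 fold change 1.07 ± 0.28, adjusted p = 0.00492). The values of lane 11 and of run 2 were within the saline + NNK range. Ccr2, the receptor that draws monocytes from the blood, gave 539, 561, 491, 848 and 437 against 136 to 400.3 (median 236) (log2 fold change 1.21 ± 0.22, adjusted p = 0.000147), and here lane 11 was the highest of the 5. Ccl5 (-0.34 ± 0.33 (0.436), log2 fold change ± SE with adjusted p in parentheses, as below) and the decoy-like receptor Ccrl2 (-0.26 ± 0.16 (0.206)) did not pass. Without lane 11, Ccrl2 passed as lower (log2 fold change -0.44, adjusted p = 0.0128).

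The 12 other members of this list had mean counts under 87 and were outside the main test. With a minimum of 20 counts, 663 genes were tested, of which 189 were higher (28.5%) and 21 lower (3.17%). In that test Ccr1, a receptor of monocytes and neutrophils, ran from 98.5 to 172 with HDE + NNK and 47.7 to 70.8 with saline + NNK (log2 fold change 1.14 ± 0.22, adjusted p = 0.000296). The monocyte chemokines Ccl2 (log2 fold change 1.41 ± 0.39, adjusted p = 0.00802) and Ccl12 (log2 fold change 1.24 ± 0.30, adjusted p = 0.00307) were higher too. Their neighbour Ccl7 (log2 fold change 0.90 ± 0.51, adjusted p = 0.182) and Ccl24 (log2 fold change 0.49 ± 0.48, adjusted p = 0.419), another eosinophil chemokine, did not pass. These genes are named outside the naming rule and their counts are low. Genes tested only with this minimum can lie near the 5 to 40 counts of the negative controls. Scaling values ran from 922 to 1311 with HDE + NNK and 1243 to 2283 with saline + NNK. The median log2 fold change was 0.36 in this test, and all 21 genes called lower were already called in the main test. The part of background in rises seen only with this minimum was not tested.

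Ccl8, Ccl9, C3ar1, Lcn2 and Kdr have RefSeq promoters on mouse build GRCm38.p6, shown as the 250 bases before the start site, 5′ to 3′, because they belong to the largest changes described here and differ in the letters they hold. Capitals mark matches to 5 motifs searched on both strands, GAGGAAGT (PU.1), TTC and GAA with 4 bases of any kind between (STAT6), GGG and TTTCC with 2 bases of any kind between (NF-kB), TTGCGCAA (C/EBP) and CCGGAAGT (ETS).
Ccl8, chr11:82114935-82115184, plus strand: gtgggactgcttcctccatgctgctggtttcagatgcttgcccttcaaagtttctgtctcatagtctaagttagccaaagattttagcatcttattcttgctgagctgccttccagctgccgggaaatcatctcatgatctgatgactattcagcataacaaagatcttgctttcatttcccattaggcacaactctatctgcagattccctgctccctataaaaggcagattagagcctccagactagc
Ccl9, chr11:83578637-83578886, minus strand: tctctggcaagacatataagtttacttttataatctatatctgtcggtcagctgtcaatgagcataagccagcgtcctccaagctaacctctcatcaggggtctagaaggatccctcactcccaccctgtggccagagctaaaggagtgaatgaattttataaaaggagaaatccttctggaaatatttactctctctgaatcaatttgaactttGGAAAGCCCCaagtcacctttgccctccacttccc
C3ar1, chr6:122856158-122856407, minus strand: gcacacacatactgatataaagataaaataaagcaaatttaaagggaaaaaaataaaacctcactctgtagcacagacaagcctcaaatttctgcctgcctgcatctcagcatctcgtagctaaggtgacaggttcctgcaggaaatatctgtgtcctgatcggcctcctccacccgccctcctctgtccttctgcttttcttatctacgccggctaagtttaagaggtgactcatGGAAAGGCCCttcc
Lcn2, chr2:32387740-32387989, minus strand: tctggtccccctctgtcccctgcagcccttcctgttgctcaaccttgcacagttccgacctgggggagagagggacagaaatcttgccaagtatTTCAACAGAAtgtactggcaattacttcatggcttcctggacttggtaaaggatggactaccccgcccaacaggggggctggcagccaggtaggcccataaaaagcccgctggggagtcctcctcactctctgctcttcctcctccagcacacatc
Kdr, chr5:75978456-75978705, minus strand: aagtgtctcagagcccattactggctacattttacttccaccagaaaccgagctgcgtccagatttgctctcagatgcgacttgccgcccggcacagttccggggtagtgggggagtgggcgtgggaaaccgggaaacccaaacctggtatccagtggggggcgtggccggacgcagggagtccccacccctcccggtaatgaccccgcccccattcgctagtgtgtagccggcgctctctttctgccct
Ccl9 and C3ar1 each hold an NF-kB match, Lcn2 a STAT6 match, and Ccl8 and Kdr none of the 5. Promoters were found for 88 of the 116 genes called higher and 17 of the 22 called lower, with Ccl11 among those not found. The NF-kB letters were in 7 of the 88 (7.95%), against 6.25% of the 288 tested genes with a promoter and 1.41% of all 32851 promoters. The STAT6 letters were in 9 of the 88 (10.2%), against 6.6% and 5.85%. The PU.1 letters were in 3 of the 88 (3.41%), against 2.78% and 2.44%. The C/EBP letters (0.347% of tested, 0.164% of all) and the ETS letters (1.04% and 2.88%) were in 0 of the 88. These shares are descriptions and were not tested.

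Genes of macrophage activation, scavenging and lipid handling were higher in 12 of 20 tested members and lower in 0, with a median log2 fold change of 0.56. Chil3, a chitinase-like secreted protein of alveolar and type 2 activated macrophages, gave 14553, 34034, 37252, 7812 and 37260.4 against 1235 to 4916 (median 1960.0) (log2 fold change 3.27 ± 0.49, adjusted p = 1.92e-05). Of the 5 HDE + NNK lungs, lanes 7 and 11 were lowest, yet both exceeded the saline + NNK range. Trem2, a lipid receptor of macrophages, gave 194, 259, 382, 149.6 and 281 against 36.4 to 74.0 (median 46.9) (log2 fold change 2.38 ± 0.35, adjusted p = 1.21e-05). Msr1, the class A scavenger receptor, gave 195, 221, 278, 86.0 and 191 against 40.9 to 71.3 (median 61.1) (log2 fold change 1.75 ± 0.29, adjusted p = 4.73e-05). Neither gene overlapped between groups. The saline + NNK values of Trem2 and Msr1 lay near the negative controls (5 to 40 counts), which limits their fold changes. With counts under 87 raised to 87, the log2 fold change was 1.82 for Trem2 and 1.47 for Msr1. Both fold changes were larger after background subtraction than in the main test, and both genes stayed called higher in each setting. Spp1, the secreted matrix and cytokine protein osteopontin, averaged 2076 ± 709 against 749.9 ± 54.1 (mean ± SD, n = 5 and 6, log2 fold change 1.47 ± 0.19 (3.47e-06)).

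The same list held genes that did not rise. Marco, a scavenger receptor of alveolar macrophages, gave 177, 163, 145, 128 and 175 against 158 to 397 (median 249), lower on average but not past the threshold (log2 fold change -0.73 ± 0.29, adjusted p = 0.0521). It passed as lower in run 1 alone (log2 fold change -0.73, adjusted p = 0.0409) and with TMM (-0.88, adjusted p = 0.0147). The fatty acid receptor Cd36 (-0.27 ± 0.14 (0.156)) and the endocytic receptor Lrp1 (0.11 ± 0.16 (0.619)) did not pass. Among markers fixed for alveolar macrophages, Chil3 and Itgax (1.63 ± 0.27 (4.67e-05)) were thus higher while Marco was not. Pparg and Siglec1, under the minimum of 87, gave log2 fold change 0.77 ± 0.21, adjusted p = 0.00802 and log2 fold change 0.71 ± 0.30, adjusted p = 0.0751 with the minimum of 20, so Pparg was higher and Siglec1 did not pass.

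Receptors for antibody and fungal glucans were mostly higher, 10 of 11 tested members higher and 0 lower (median 1.12). Fcgr2b, the inhibitory IgG receptor, gave 1365, 1858, 2032, 622 and 879.6 against 167 to 307 (median 252) (log2 fold change 2.45 ± 0.27, adjusted p = 9.11e-07). Clec7a, the beta-glucan receptor dectin-1, gave 1269.7, 1754, 2147, 541 and 1792 against 294 to 463 (median 344) (log2 fold change 2.06 ± 0.27, adjusted p = 4.35e-06). In both genes lane 11 had the lowest value of the 5, and it still lay above every saline + NNK lung. The activating receptor Fcgr3 (1.68 ± 0.24 (8.44e-06)) and Syk, the kinase that signals below these receptors (1.30 ± 0.18 (7.24e-06)), were higher without overlap. Lyn, another kinase of the pathway, averaged 368 ± 94.7 against 325 ± 42.5 and did not pass (0.18 ± 0.16 (0.383)).

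Inhibitory and SLAM family receptors of myeloid cells were higher in 7 of 8 tested members. Cd200r1, which restrains macrophages and mast cells when it binds Cd200, gave 339, 405, 447, 232 and 309 against 77.8 to 119 (median 101) (log2 fold change 1.82 ± 0.30, adjusted p = 4.74e-05). Its ligand Cd200 changed less (0.46 ± 0.12 (0.00543)), and its sign turned without scaling. Slamf7 (1.49 ± 0.19 (3.47e-06)), Cd84 (1.51 ± 0.21 (7.24e-06)), Cd33 (1.31 ± 0.18 (6.7e-06)) and Cd48 (1.11 ± 0.16 (8.44e-06)) were higher, each with no overlap between the groups. Cd47, the broadly expressed signal that limits phagocytosis, did not pass (-0.14 ± 0.10 (0.306)).

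Microbial sensing genes were higher in 6 of 12 tested members of the Toll-like receptor list, against 29.9% of all tested genes. Cd14, the co-receptor that hands endotoxin to Tlr4, gave 412, 499, 526, 269 and 342 against 127 to 154 (median 144) (log2 fold change 1.53 ± 0.22, adjusted p = 9.89e-06). Ly96, the endotoxin-binding partner of Tlr4 (0.87 ± 0.15 (5.18e-05)), Ly86 (1.48 ± 0.25 (5.33e-05)) and Tlr2, a receptor for bacterial lipoproteins (0.87 ± 0.15 (9.71e-05)), were higher as well, without overlap. Tlr4 itself averaged 290.5 ± 57.5 against 227 ± 29.6 and did not pass (0.35 ± 0.16 (0.0916)), though it did without lane 11 (log2 fold change 0.47, adjusted p = 0.0151). The signalling kinase Irak2 did not pass (0.30 ± 0.20 (0.273)).

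Complement genes were higher in 11 of 19 tested members and lower in 0, with a median of 0.35 that turned negative without scaling and with positive control scaling. The receptor for the fragment C3a, C3ar1, gave 219, 295, 384, 267 and 232 against 57.0 to 87.5 (median 64.6) (log2 fold change 2.05 ± 0.23, adjusted p = 9.11e-07). C3, the central component, gave 2086, 2350.2, 2311, 3131 and 2331 against 924 to 1394 (median 1107) (log2 fold change 1.11 ± 0.13, adjusted p = 1.16e-06), with lane 11 the highest. Cfb, the alternative pathway protease, gave 536, 573, 490.5, 263 and 555 against 111 to 224 (median 164) (log2 fold change 1.57 ± 0.21, adjusted p = 4.35e-06), with lane 11 the lowest. The 3 genes did not overlap between groups. C1qb, a subunit of the classical pathway recognition protein, was higher (1.02 ± 0.19 (0.000153)), while Serping1, the inhibitor of the first component (-0.22 ± 0.15 (0.277)), and the terminal component C7 (-0.23 ± 0.18 (0.332)) did not pass. Without lane 11, Serping1 was the 1 complement gene called lower (log2 fold change -0.41, adjusted p = 0.00985).

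Lcn2, a protein of neutrophils and airway epithelium that withholds iron from bacteria, gave 8255, 8492, 8159, 3322 and 10443 against 1241 to 2258 (median 1752) (log2 fold change 2.13 ± 0.25, adjusted p = 1.29e-06). Fpr2, a formyl peptide receptor of neutrophils and monocytes, overlapped in 1 library (0.87 ± 0.19 (0.00091)). S100a8, an abundant neutrophil protein, averaged 537 ± 80.8 against 383 ± 122 and did not pass (0.49 ± 0.26 (0.148)), nor did the platelet chemokine Ppbp (-0.27 ± 0.18 (0.255)). Of the 17 genes of the neutrophil list, 4 were tested and 2 were higher, against 29.9% of all tested genes. With the minimum of 20, the neutrophil chemokines Cxcl3 (log2 fold change 2.17 ± 0.37, adjusted p = 7.65e-05), Cxcl5 (log2 fold change 1.95 ± 0.48, adjusted p = 0.00307) and Cxcl1 (log2 fold change 1.29 ± 0.37, adjusted p = 0.00932) were higher and Cxcl2 (log2 fold change 0.76 ± 0.40, adjusted p = 0.156) did not pass. The neutrophil receptors Csf3r (log2 fold change 0.33 ± 0.28, adjusted p = 0.36) and Cxcr2 (log2 fold change 0.39 ± 0.28, adjusted p = 0.302) did not pass either. The 3 chemokines called higher and Cxcl2 are named outside the rule.

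Eosinophil markers were low, and the saline + NNK values of Ccr3 and Prg2 were at the level of the negative controls (5 to 40 counts). Ccr3, the eotaxin receptor, ran from 32.3 to 88.9 with HDE + NNK and 6.02 to 19.6 with saline + NNK, and Prg2, a granule protein, from 33.7 to 78.3 with HDE + NNK and 7.67 to 17.8 with saline + NNK, each without overlap. With the minimum of 20 both were higher (Ccr3, log2 fold change 2.35 ± 0.40, adjusted p = 7.49e-05, and Prg2, log2 fold change 2.06 ± 0.37, adjusted p = 0.000152), as was Il5ra (log2 fold change 1.13 ± 0.40, adjusted p = 0.0332). The summed level of the 3 markers ran from 125 to 205 with HDE + NNK and 25.2 to 62.4 with saline + NNK. Of the type 2 list, 4 of 14 panel genes were tested and 3 were higher, Chil3, Ccl17 and the receptor subunit Il13ra1. Il13ra1 gave 595, 604, 586, 534 and 581 against 361 to 416 (median 401) (log2 fold change 0.55 ± 0.10, adjusted p = 0.000153), with no overlap. Il4ra, its partner, did not pass (0.08 ± 0.17 (0.748)), nor did Il13 with the minimum of 20 (log2 fold change 1.05 ± 0.70, adjusted p = 0.257, named outside the rule).

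Of 9 tested lysosomal genes 3 were higher, a share near the 29.9% of all tested genes (median 0.23, negative without scaling and with positive control scaling). Ctss, the protease that trims the invariant chain of MHC class II, gave 7464, 9024, 11049, 3417 and 6548 against 1788 to 2785 (median 1905) (log2 fold change 1.80 ± 0.28, adjusted p = 2.47e-05). Cd63 (0.89 ± 0.15 (5.22e-05)) and Ctsl (0.86 ± 0.22 (0.0033)) were higher, while Lamp1 (0.23 ± 0.09 (0.0518)) and Lamp3, a marker of alveolar type II cells and mature dendritic cells (0.29 ± 0.12 (0.0576)), did not pass. Without lane 11, 5 of the 9 were higher, Lamp3 among them (log2 fold change 0.38, adjusted p = 0.00661). Of 7 tested MHC class II genes, 4 were higher, against 29.9% of all tested genes. H2-DMb2, which loads peptides, averaged 300.1 ± 92.5 against 133 ± 35.9 (1.18 ± 0.22 (0.000177)), and H2-Ea-ps (0.74 ± 0.17 (0.00124)), H2-Aa (0.52 ± 0.15 (0.00931)) and H2-Eb1 (0.59 ± 0.20 (0.0254)) were called higher. H2-Eb1 lost the call without lane 11 (log2 fold change 0.49, adjusted p = 0.0631) and without any of 4 other libraries. H2-Aa and H2-Eb1 did not pass with TMM (adjusted p = 0.0732 and 0.0509). The class II genes share sequence, and how far their probes read each other is not given in the sources used here. Cd74 (0.32 ± 0.13 (0.0638)) and H2-Ab1 (-0.33 ± 0.25 (0.314)) did not pass. Of 13 tested class I and peptide loading genes, 1 was higher, Cd1d1 (0.61 ± 0.17 (0.00544)), and 1 lower, Mill2 (-0.57 ± 0.16 (0.00785), lost with the floor of 87, log2 fold change -0.38, adjusted p = 0.163), with H2-D1 (0.11 ± 0.13 (0.522)) and H2-K1 (0.33 ± 0.14 (0.0637)) not past the threshold.

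**Figure D3:**
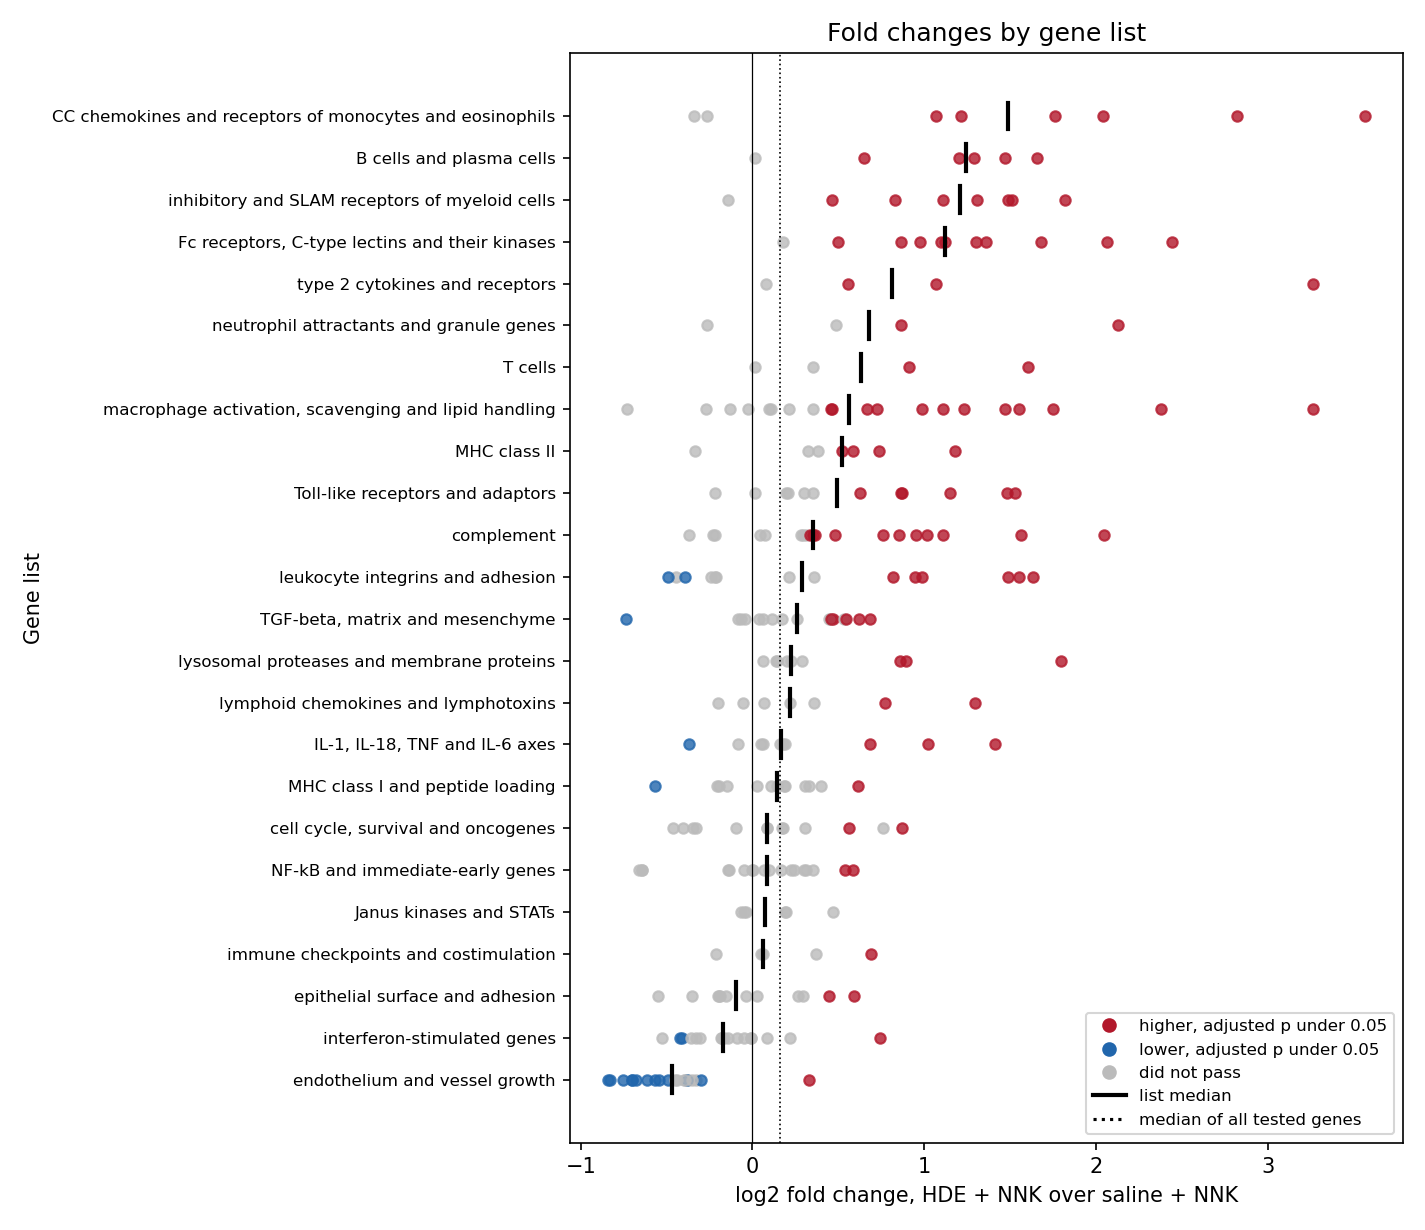
Log2 fold change of HDE + NNK over saline + NNK (x axis) for each tested member of the gene lists with at least 4 tested members (y axis), red where higher and blue where lower at an adjusted p under 0.05. Black bars mark list medians and the dotted line the median of all tested genes, 0.16. Medians of the CC chemokine, B cell, inhibitory receptor and Fc receptor lists lie farthest to its right, and the endothelial list has the lowest median, -0.47.

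B cell genes were higher in 5 of 6 tested members. Ms4a1, the B cell surface protein CD20, gave 333, 584, 566, 192 and 233 against 50.4 to 191 (median 121) (log2 fold change 1.66 ± 0.31, adjusted p = 0.000153). The groups did not overlap but lay close, with 192 in lane 11 and 191 in the highest saline + NNK lung. Cd37, a tetraspanin of mature B cells (1.47 ± 0.20 (5.53e-06)), Cd79b, a signalling chain of the B cell receptor (1.20 ± 0.23 (0.000278)), and Xbp1, which drives the secretory program of plasma cells and other secretory cells (0.65 ± 0.10 (3.05e-05)), were higher, while Cd38 did not pass (0.01 ± 0.21 (0.972)). With the minimum of 20, the plasma cell receptor Tnfrsf17 was higher (log2 fold change 1.87 ± 0.29, adjusted p = 3.14e-05). Of 7 tested lymphoid chemokine and lymphotoxin genes, 2 were higher, a share near the 29.9% of all tested genes. Cxcl13, which guides B cells into follicles, gave 186, 301, 326, 127 and 102 against 44.4 to 128 (median 88.4) (log2 fold change 1.29 ± 0.35, adjusted p = 0.00587), with overlap in lane 11 and in run 2. Ltb, a lymphotoxin subunit needed for lymphoid tissue, was higher without overlap (0.77 ± 0.23 (0.00901)). The stromal chemokines Cxcl12 (0.07 ± 0.14 (0.73)) and Ccl21a (-0.20 ± 0.11 (0.165)) did not pass.

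T cell genes were mostly under the count minimum, 4 of 25 tested and 2 of those higher, against 29.9% of all tested genes. Il7r, the interleukin-7 receptor of T cells and innate lymphoid cells, gave 177, 279.7, 365, 257 and 221 against 66.8 to 96.1 (median 90.0) (log2 fold change 1.60 ± 0.28, adjusted p = 7.29e-05), and the T cell receptor chain Cd3g was higher with overlap in 1 library (0.91 ± 0.18 (0.000356)). Thy1 did not pass (0.35 ± 0.21 (0.21)). With the minimum of 20, Cd4 was higher (log2 fold change 1.09 ± 0.30, adjusted p = 0.00772), whereas Cd3e (log2 fold change 0.22 ± 0.24, adjusted p = 0.481) and Cd8a (log2 fold change 0.50 ± 0.45, adjusted p = 0.39) did not pass. The 21 NK and cytotoxic granule genes all lay under 87. Ncr1 (log2 fold change -0.08 ± 0.31, adjusted p = 0.836) and Klrd1 (log2 fold change -0.02 ± 0.25, adjusted p = 0.956), defining receptors of NK cells, did not pass with the minimum of 20.

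With the main scaling, interferon-stimulated genes were mostly not called. Of 18 tested members 1 was higher and 2 lower, against 29.9% and 5.67% of all tested genes. The median of -0.17 was negative under all 4 other scalings. With TMM, 11 of the 18 were lower and 1 higher, where 78 of all 388 tested genes were lower. Ifitm1 was higher (0.74 ± 0.17 (0.00151)). Irf1, a transcription factor induced by interferon-gamma, gave 649.8, 501, 466, 666 and 557 against 619 to 906 (median 738) and was lower (log2 fold change -0.42 ± 0.13, adjusted p = 0.0149), a call lost without lane 9 of run 1 (leave-one-out range -0.48 to -0.36). Ifit1 was lower as well (-0.41 ± 0.15 (0.0405)), a call lost without lane 11 (log2 fold change -0.39, adjusted p = 0.063) and without any of 7 other libraries, as well as with the floor of 87 (log2 fold change -0.20, adjusted p = 0.475). Ifitm2 (-0.01 ± 0.14 (0.969)) and Ifi27 (-0.09 ± 0.12 (0.592)) did not pass.

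Genes of the endothelium and vessel growth were mostly lower. Of 20 tested members, 12 were lower and 1 higher, against 5.67% lower among all tested genes, and the median log2 fold change was -0.47 (-0.65 with TMM). Vegfa, the growth factor that maintains lung capillaries and is made largely by the alveolar epithelium, gave 2175, 1307, 1501, 2688 and 1294 against 2841 to 3399 (median 3268) (log2 fold change -0.83 ± 0.17, adjusted p = 0.000515). Its main receptor Kdr gave 873, 650.1, 661, 1248 and 603 against 1212 to 1572 (median 1312) (log2 fold change -0.76 ± 0.17, adjusted p = 0.00103). Vegfa did not overlap between the groups, and Kdr did so only through lane 11. Pecam1, the junction protein CD31, gave 3403, 2118, 2187, 3383 and 2081 against 3556 to 4254 (median 4109), with no overlap (log2 fold change -0.62 ± 0.14, adjusted p = 0.00132). Tek, the angiopoietin receptor, gave 1210.0, 637, 715, 1551 and 1057 against 1271 to 1910.0 (median 1701) (log2 fold change -0.70 ± 0.19, adjusted p = 0.00626). Eng, a co-receptor for TGF-beta on endothelium, gave 563, 412, 399.6, 1032 and 421 against 839 to 1087 (median 893) (log2 fold change -0.70 ± 0.20, adjusted p = 0.00673), and its lane 11 value was within the saline + NNK range.

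Further falls were in Thbd, the anticoagulant thrombomodulin (-0.68 ± 0.19 (0.00687)), Cdh5, the junction cadherin of endothelium (-0.57 ± 0.19 (0.02)), and Lyve1, a receptor of lymphatic endothelium and some macrophages (-0.84 ± 0.27 (0.0171)). Dll4, Icam2, Cd34 and Nrp1 were the remaining members called lower, with log2 fold changes of -0.55 to -0.30. Tie1 (-0.37 ± 0.22 (0.195)) and Vwf (-0.40 ± 0.18 (0.0879)) did not pass. Hif1a, the oxygen-sensing transcription factor, was the member called higher (0.33 ± 0.09 (0.00664)), and its sign turned without scaling and with positive control scaling. Without lane 11, 18 of the 20 members were lower and the median was -0.72, Tie1 (log2 fold change -0.76, adjusted p = 0.00022) and Vwf (log2 fold change -0.50, adjusted p = 0.0337) among them. Several of these calls were lost when a single library was left out, though the direction was kept. Cdh5 (leave-one-out range -0.83 to -0.43) lost its call without lanes 8 or 9 of run 1 or lane 9 of run 2, and Lyve1 (-1.06 to -0.71) without lane 9 of run 2. Dll4 lost it without any of 6 single libraries, Icam2 of 3, Cd34 of 7 and Nrp1 of 2. In run 1 alone 5 of the 20 members were lower. Over all 22 genes called lower, the direction was the same in run 1 alone but 8 passed, and Cdh5 did not (log2 fold change -0.45, adjusted p = 0.143).

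**Figure D4:**
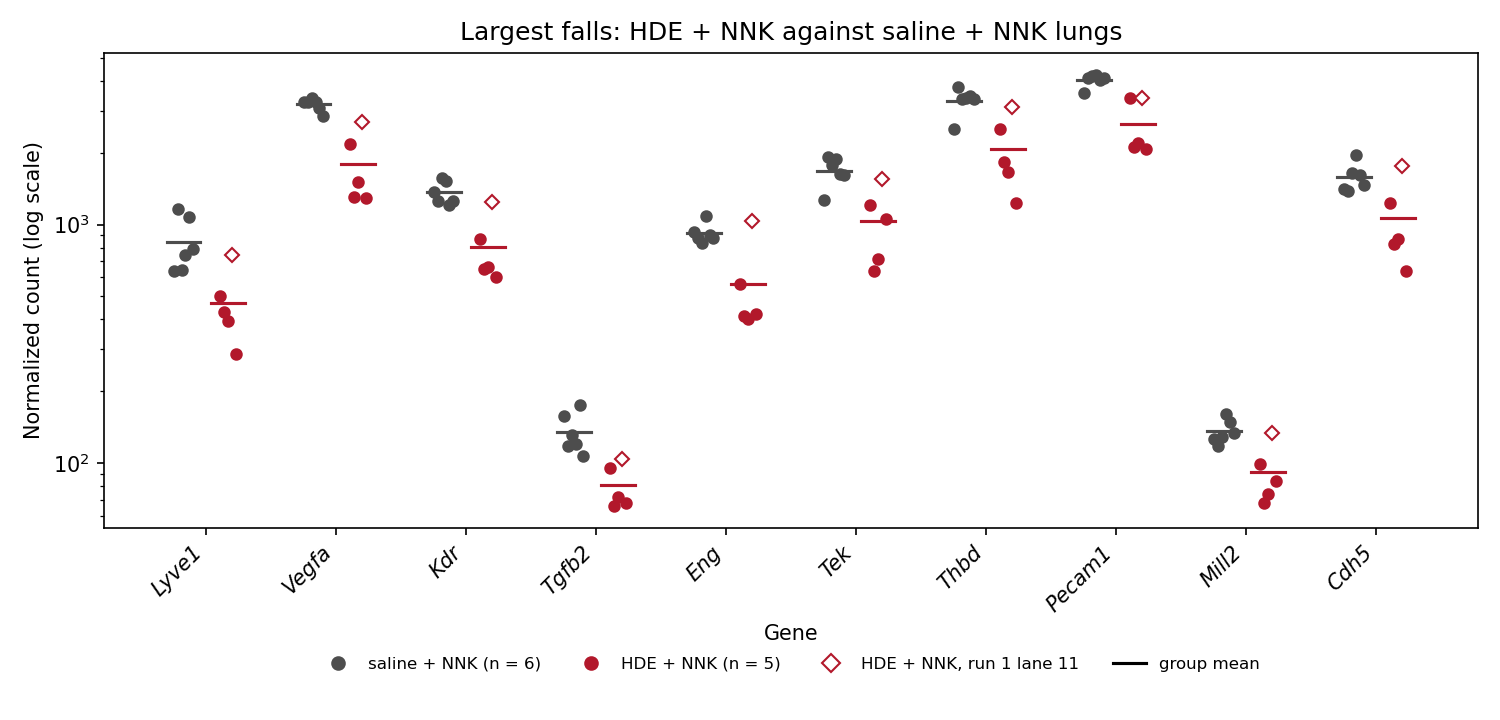
Normalized counts (y axis, log scale) of the 10 genes with the largest falls, 1 point per library, with saline + NNK in grey, HDE + NNK in red, the library of run 1 lane 11 as an open diamond and lines at group means. In Vegfa, Tgfb2 and Pecam1 all 5 HDE + NNK lungs lie below saline + NNK, and in the other 7 genes 4 of the 5 do.

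Markers of cell types moved with these groups. The summed level of 6 blood endothelial markers ran from 5426 to 10363 with HDE + NNK and 9315 to 11622 with saline + NNK, and 4 of the 5 HDE + NNK lungs were below all saline + NNK lungs. The exception was lane 11. The 8 monocyte or interstitial macrophage markers summed to 3114 to 3771 with HDE + NNK and 1644 to 2138 with saline + NNK, and the 5 alveolar macrophage markers on the panel to 8463 to 38036 with HDE + NNK and 1659 to 5324 with saline + NNK, both with no overlap. Most of the alveolar macrophage sum was Chil3. Probes differ between genes, so each sum is weighted toward its markers with the highest counts. Of the 8 monocyte or interstitial macrophage markers, 6 were in the main test. Ccr2, Emr1, Cd68 and C1qa were called higher, and Csf1r and Mertk did not pass. Cx3cr1 and Fcgr1 were under the count minimum and did not pass in the edgeR test with the lower minimum (adjusted p = 0.0795 and 0.275). B cell markers summed to 593 to 1331 with HDE + NNK and 179 to 572 with saline + NNK. NK cell markers (141 to 248 with HDE + NNK and 90.4 to 267 with saline + NNK) and platelet markers (144 to 224 with HDE + NNK and 142 to 209 with saline + NNK) overlapped. Epithelial markers summed to 25711 to 39124 with HDE + NNK and 18978 to 35583 with saline + NNK, with 3 HDE + NNK lungs above all saline + NNK lungs. All 5 HDE + NNK lungs also lay above saline + NNK for the summed plasma cell (1294 to 1964 with HDE + NNK and 995 to 1125 with saline + NNK), T cell (276 to 454 with HDE + NNK and 162 to 267 with saline + NNK) and neutrophil markers (1071 to 1379 with HDE + NNK and 586 to 1011 with saline + NNK), and 4 of the 5 lay below for lymphatic endothelium (1118 to 1761 with HDE + NNK and 1612 to 2335 with saline + NNK). For fibroblast and mesenchyme markers 4 lay above and 1 below all saline + NNK lungs (698 to 2204 with HDE + NNK and 807 to 1496 with saline + NNK). Of the 4 plasma cell markers, 1 was in the main test, Xbp1, which is also a gene of other secretory cells. Of the 5 T cell markers, 1 was in that test, Cd3g, and both genes were called higher. Of the 6 neutrophil markers, 2 were in it, Fpr2, called higher, and S100a8, which did not pass. Sums overlapped for markers of dendritic cells, mast cells or basophils, cycling cells and ciliated epithelium. The part of shifts in cell makeup in the gene results was not tested.

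Of 17 tested genes of TGF-beta signalling, matrix and mesenchyme, 5 were higher and 1 lower, shares near the 29.9% and 5.67% of all tested genes. Tgfb1, the isoform of immune cells, gave 423, 513, 554, 566 and 400.4 against 337 to 379.6 (median 348) and was higher with no overlap (log2 fold change 0.47 ± 0.12, adjusted p = 0.00413), a sign that turned without scaling. Tgfb2 gave 95.6, 65.9, 72.3, 103 and 67.9 against 107 to 175 (median 125) and was lower, also with no overlap (log2 fold change -0.74 ± 0.18, adjusted p = 0.00297). In the deposited table that raises counts under 87 to 87, the call was lost (log2 fold change -0.44, adjusted p = 0.0935). The receptor Tgfbr1 (0.62 ± 0.13 (0.000745)), the intermediate filament vimentin (Vim, 0.54 ± 0.12 (0.00105)) and the urokinase receptor Plaur (0.69 ± 0.18 (0.00409)) were higher. Tgfbr2 (0.06 ± 0.12 (0.703)), fibronectin (Fn1, 0.53 ± 0.21 (0.0504)) and the collagen genes Col1a1 (0.26 ± 0.24 (0.429)) and Col3a1 (0.45 ± 0.26 (0.2)) did not pass.

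Epithelial genes mostly did not pass, 2 of 12 higher and 0 lower, against 29.9% and 5.67% of all tested genes. Muc1, a membrane mucin that is raised in many adenocarcinomas, gave 3099.6, 2629.9, 2754, 3757 and 3682 against 2043 to 2519 (median 2353) (log2 fold change 0.45 ± 0.11, adjusted p = 0.00198), and its sign turned without scaling. Ceacam1 was higher (0.59 ± 0.15 (0.00357)). Epcam (0.03 ± 0.11 (0.865)), the airway chemokine Cxcl15 (0.30 ± 0.23 (0.318)) and Foxj1, which marks ciliated cells (-0.19 ± 0.18 (0.436)), did not pass. Of 5 tested checkpoint and costimulatory genes 1 was higher, against 29.9% of all tested genes. This was Cd274, which encodes the inhibitory ligand PD-L1. It gave 437, 413, 431, 415 and 554 against 193 to 341 (median 298) (log2 fold change 0.69 ± 0.20, adjusted p = 0.00884), with no overlap. The ectonucleotidases Nt5e (-0.21 ± 0.16 (0.312)) and Entpd1 (0.05 ± 0.14 (0.806)) did not pass. With the minimum of 20, the receptor Pdcd1 ran from 28.5 to 81.0 with HDE + NNK and 6.58 to 32.5 with saline + NNK (log2 fold change 1.42 ± 0.45, adjusted p = 0.0182) and Ctla4 from 44.8 to 71.3 with HDE + NNK and 17.5 to 40.3 with saline + NNK (log2 fold change 1.07 ± 0.31, adjusted p = 0.0108), both higher and both named outside the rule. The saline + NNK values of Pdcd1 were at the level of the negative controls (5 to 40 counts), which limits its fold change. Other members of the list, also named outside the rule, were mixed with this minimum. Icos (1.29 ± 0.26 (0.00051)) and Cd80 (0.92 ± 0.23 (0.00339)) were higher. Tigit (0.76 ± 0.41 (0.168)), Cd276 (0.52 ± 0.28 (0.169)) and Cd86 (0.46 ± 0.23 (0.129)) did not pass.

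Among integrins and adhesion genes, 6 of 14 were higher and 2 lower, against 29.9% and 5.67% of all tested genes. Itgb2, the shared chain of leukocyte integrins, averaged 1179 ± 172 against 421 ± 82.4 (1.49 ± 0.20 (4.35e-06)), and Itgax (1.63 ± 0.27 (4.67e-05)), Itga4 (0.95 ± 0.16 (7.29e-05)) and the selectin ligand Selplg (0.99 ± 0.14 (7.24e-06)) were higher. The lower members, Icam1 and Icam2 (log2 fold changes -0.40 and -0.49), are expressed on endothelium. Itgb1 (-0.21 ± 0.15 (0.296)) and Itga1 (-0.45 ± 0.20 (0.0871)) did not pass. Without lane 11, 5 of the 14 were lower, Itga1 among them (log2 fold change -0.72, adjusted p = 0.00125). Icam1 lost its call without any of 4 single libraries and in run 1 alone (log2 fold changes of -0.48 to -0.32 over all 11 libraries left out in turn). In the IL-1, IL-18, TNF and IL-6 list, Il1rn, the natural blocker of the IL-1 receptor, averaged 350.3 ± 176 against 132 ± 19.7 (1.41 ± 0.29 (0.000515)), the inflammatory caspase Casp1 was higher (0.68 ± 0.17 (0.00297)) and Il18r1 lower (-0.37 ± 0.10 (0.00673)). Tnfrsf1b was higher (1.02 ± 0.32 (0.0128)), a call lost without lane 11 (log2 fold change 0.66, adjusted p = 0.0723). Il1b, with the minimum of 20, did not pass (log2 fold change 0.22 ± 0.34, adjusted p = 0.609, named outside the rule).

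Few signalling and growth genes passed. Of 13 tested cell cycle, survival and oncogene members 2 were higher, against 29.9% of all tested genes. Myc, a transcription factor of cell growth, was one of them (0.87 ± 0.30 (0.0276)) and lost the call when any of 5 single libraries was left out. Lane 11 was among these 5 (without it, log2 fold change 0.75, adjusted p = 0.0655). Of 18 NF-kB and immediate-early genes 2 were higher, among them the feedback inhibitor Tnfaip3 (0.59 ± 0.17 (0.00884)). Jun (-0.64 ± 0.29 (0.0935)), Jak1 (-0.07 ± 0.11 (0.666)) and Stat3 (-0.05 ± 0.11 (0.767)) did not pass, and 0 of 6 Janus kinase and STAT genes did. Without lane 11, Jun was lower (log2 fold change -0.84, adjusted p = 0.0317), and the calls were 1 higher and 1 lower in the NF-kB list and 1 higher and 3 lower in the cell cycle list. The medians of these 3 lists, 0.08 to 0.09, changed sign with each of the 4 other scalings.

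The dust extract effect was set against that in mice without NNK (4 HDE-only and 6 saline-only lungs, with the same intranasal doses), where 117 genes were higher (30.2%) and 17 lower (4.38%). By the labels 1 of the 4 HDE-only and 5 of the 6 saline-only mice were female, so sex and dust extract are hard to tell apart in that comparison. All 116 genes higher after NNK had a positive fold change there and 100 passed, and all 22 lower genes had a negative one and 12 passed. Tested directly, the difference between the effects (HDE by NNK interaction) was called for 0 of 388 genes (0%) by edgeR, with 4 at an unadjusted p under 0.05 and a smallest adjusted p of 0.9999. The genes with the smallest interaction p-values were Herc6 (-0.48 ± 0.20), H2-T23 (-0.71 ± 0.32), Itga6 (0.49 ± 0.23), H2-Ab1 (-0.77 ± 0.36) and Marco (0.86 ± 0.44), given as the difference in log2 fold change, with minus without NNK, ± SE. Marco had a log2 fold change of -0.73 with NNK and -1.59 (adjusted p = 0.000686) without it. Ccl8 rose by 3.57 and 4.02, and Chil3 by 3.27 and 3.63. DESeq2 and limma also called 0 genes. In run 1 alone 1 gene was called, Cd274 (interaction -0.99, adjusted p = 0.0382), whose rise there was smaller with NNK than without. In that run the groups without NNK held only 2 HDE-only and 2 saline-only libraries. No other setting that tested the interaction called a gene. A difference that misses the threshold does not show that the effects were equal.

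**Figure D5:**
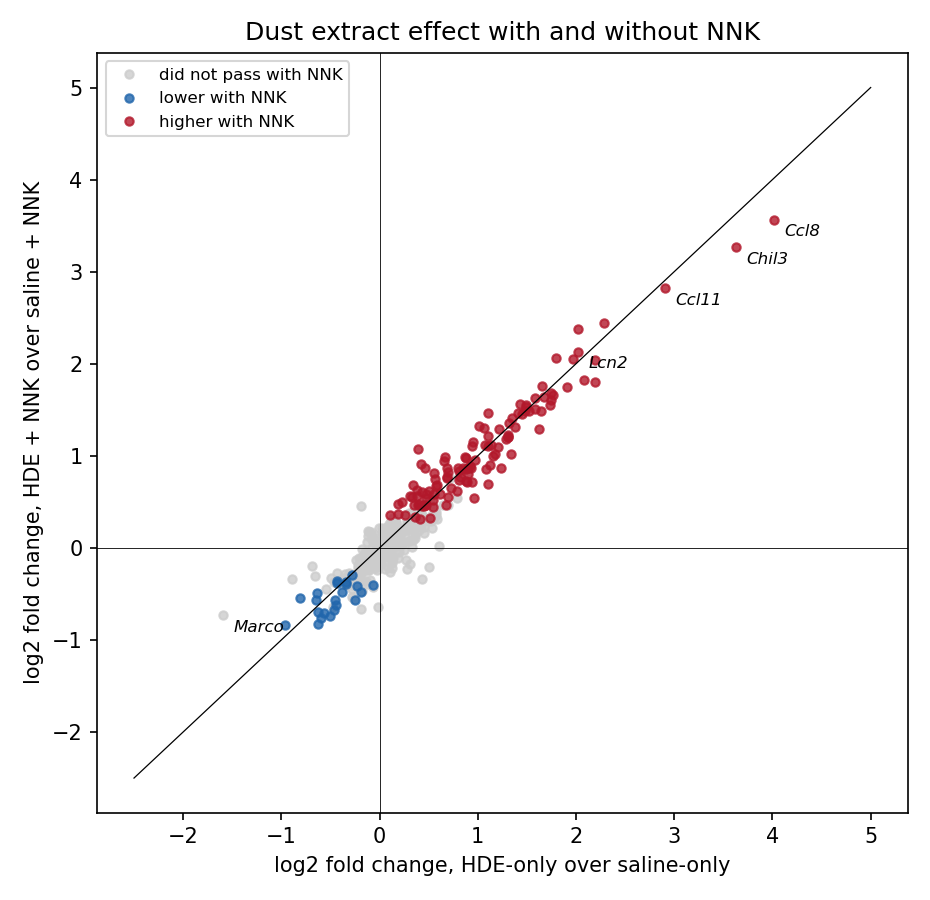
Log2 fold change of HDE over saline for each of the 388 tested genes without NNK (x axis) and with NNK (y axis), red where higher and blue where lower with NNK at an adjusted p under 0.05, grey otherwise, with the line of equal change. All 116 red genes lie to the right of 0 and all 22 blue genes to the left.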

How the data were processed

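The authors hybridized 50 ng of lung RNA per mouse for 16 h to the NanoString mouse PanCancer Immune panel (784 probes) and deposited raw counts per probe, not normalized, and the same counts with gene values under 87 raised to 87. All 16464 values matched once that floor was applied and each probe's values were sorted. Raw table columns carry the group, run and lane, and only the other table carries sex and replicate number, so columns were not matched between tables. The run 1 and run 2 libraries are 4 and 1 for HDE + NNK, 4 and 2 for saline + NNK. For scaling, the geometric mean of Sdha, Rpl19, Oaz1 and Eef1g was used, the genes that the study used. The 388 other genes whose raw counts averaged 87 or more over 21 libraries entered edgeR 4.0.16 under R 4.3.3 (robust quasi-likelihood, 4 group means over 21 libraries, Benjamini-Hochberg). Standard errors are the log2 fold change over the square root of F. Alternatives were other scalings, minimums, DESeq2 1.42.0, limma 3.58.1, run, sex or replicate terms and single libraries left out. The test was also run on counts simulated from its own model with the scaling known, so that run cannot check the scaling.

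Members and gene lists (25 lists and 17 marker sets, from general knowledge) were chosen with earlier results of these data known. Named with values were the 14 largest rises and 10 largest falls, up to 4 members per list that passed and 2 that did not, the 5 smallest interaction p-values and the scaling and marker genes. Some genes that the rule takes are given by counts only, and Cd200, Tgfb1, Hif1a, Icam1, Icam2, Dll4 and Cd34 fall outside it and were chosen after their values were seen. A few genes are not reported here. By the methods, some control mice of the study also received ethanol in saline, which the labels do not assign. Symbols were matched to RefSeq for 387 of 388 genes, synonyms included.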

Additional observations from a re-analysis of the deposited data

Results flagged for a closer look

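For the named genes and the first principal component, 23 of 266 group and gene combinations held a library far from the others of its group, by the ratio of its gap to the nearest library over the group's range. Chance gives about 1 in 20 for such a rule if values are normally distributed, which was not tested. The combinations share the same libraries and are not independent, so 23 of 266 is not a test against that rate. Of the 15 in HDE + NNK, 12 concerned the library of run 1 lane 11.

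This library was highest, in normalized counts, for Eng (1032 against 563 in the nearest library, ratio 0.742), C3 (3131 against 2350.2 in the nearest library, ratio 0.747), Ifitm2 (2895 against 1817 in the nearest library, ratio 0.792), Tie1 (1616 against 779 in the nearest library, ratio 0.768), Tnfrsf1b (575 against 277 in the nearest library, ratio 0.791), Il6st (804 against 517 in the nearest library, ratio 0.82), Tnfrsf1a (787 against 438 in the nearest library, ratio 0.939), Il4ra (329 against 196 in the nearest library, ratio 0.781), Fas (795 against 355 in the nearest library, ratio 0.906) and H2-T23 (262 against 165 in the nearest library, ratio 0.849). It was lowest for Cfb (263 against 490.5 in the nearest library, ratio 0.734) and Emr1 (241 against 457 in the nearest library, ratio 0.74). Other HDE + NNK libraries stood apart in Cd36 (5793 against 4412 in the nearest library, ratio 0.742), run 2 lane 9, Ifit1 (121 against 84.8 in the nearest library, ratio 0.804), run 1 lane 7 and Cd274 (554 against 437 in the nearest library, ratio 0.83), run 2 lane 9.

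In saline + NNK, the library of run 1 lane 1 stood apart in Trem2 (74.0 against 47.7 in the nearest library, ratio 0.699), Thbd (2513 against 3365 in the nearest library, ratio 0.683) and Pecam1 (3556 against 4019 in the nearest library, ratio 0.663), that of run 1 lane 5 in Lamp1 (3988 against 3546 in the nearest library, ratio 0.637) and Il6st (590.1 against 479 in the nearest library, ratio 0.807) and that of run 2 lane 1 in Ccl5 (72.9 against 155 in the nearest library, ratio 0.694), Plaur (689 against 461 in the nearest library, ratio 0.714) and Il18r1 (773 against 1024 in the nearest library, ratio 0.82). The cause was not tested for any of these libraries.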

How the results depend on the processing

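The scaling mattered most. Genes higher numbered 31 with positive control scaling and 37 without scaling, and genes lower 78 with TMM, 55 with all panel housekeeping genes, 11 with positive control scaling, 51 without scaling and 91 with DESeq2's own size factors, against 116 and 22. The median log2 fold change was -0.0034 (TMM), -0.22 (positive controls), -0.35 (none) and -0.014 (DESeq2's own), against 0.16. Genes whose groups did not overlap numbered 44, 43, 6, 13 and 44 higher and 35, 19, 0, 71 and 35 lower (TMM, housekeeping, positive controls, none, DESeq2's own), and 7 lower after background subtraction, against 79 and 4. Muc1 turned to -0.086 without scaling. With a minimum of 20 counts, 189 genes were higher (median 0.36, 121 not overlapping), with no filter 184 (0.45, 125), and with 87 in every library 64 (44 not overlapping), where 218 genes were tested. In run 1 alone 15 genes lay apart lower and 1 interaction was called. Leaving out 1 library gave 107 to 124 genes higher, 12 to 48 lower, 79 to 101 apart higher and 4 to 26 apart lower. Genes lower numbered 12 and 13 without HDE + NNK lanes 9 and 8 of run 1, and 48 without lane 11. Genes apart lower numbered 8 without lane 7 of run 1, 26 without lane 11 and 9 without the saline + NNK library of run 2 lane 1. Without the saline-only library marked by the instrument, an alternative chosen after seeing the data, 115 genes were higher and 23 lower. Genes near 87 counts, where negative controls reach 40, are limited by background.

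The replicate numbers of the labels are shared between groups but not said to pair animals. With them as a replicate block, on the counts with the floor of 87, 114 genes were higher and 20 lower, against 119 and 21 without the block. Correlations of the 5 same-numbered pairs were 0.00 to 0.25, 3 of them over 0.1, and 0 of 5 HDE + NNK libraries correlated best with its own number.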
